A study of Homo sapiens with 8 samples.

Results

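The genes described here were 9 transcription factors that mark luminal breast epithelium or act beside FOXA1 and ESR1 (the estrogen receptor), namely GATA3, TRPS1, TFAP2A, TFAP2B, TFAP2C, ELF3, SPDEF, GRHL2 and ZNF217. They were chosen by name, with earlier results of these data known, and make up 9 of the 20531 genes in the tables. Messenger RNA was sequenced from SKBR-3 and BT474m1, a pair of human breast carcinoma lines in which the HER2 receptor gene ERBB2 is amplified. SKBR-3 does not make the estrogen or progesterone receptor, while BT474m1, derived from the BT474 line, makes both. Cells of each line grew in RPMI medium with serum and were given, for 48 h, the vehicle DMSO, 300 nM lapatinib, which blocks the kinase activity of HER2 and EGFR, 300 nM JQ1, which keeps BET proteins off acetylated histones, or 300 nM of each drug together. This made 8 groups of 1 library.

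Luminal identity in the breast rests on a small circle of transcription factors that bind the same enhancers and keep one another expressed. FOXA1 opens closed chromatin, GATA3 and the AP-2 proteins bind beside it, and the estrogen receptor then acts at these sites. HER2-positive tumors share the luminal lineage whether or not they make the estrogen receptor, and BET proteins hold the transcription machinery at the enhancers of such lineage genes.

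Values are normalised read counts, estimated read counts per gene that the authors scaled to place the upper quartile of nonzero genes at 1000. Log2 fold changes are differences of log2(value + 1), and 1 or more in size on that scale, called 2-fold here, counted as a change. Other folds are plain ratios of the values, with no pseudocount, and for scarce transcripts are larger than the log2 value beside them implies. With 1 library per group, no difference could be set against a spread between cultures, and no test was made. The 95% intervals given with a log2 change between 2 libraries are exact Clopper-Pearson intervals from the recovered read counts. Those on a difference between such changes, and on a departure from their sum, are normal approximations from the Poisson variance of the 4 read counts. Both cover counting error only. In whole cultures, a smaller share of cells with a transcript and less of that transcript per cell cannot be told apart. The labels give no sequencing run, and its part in the differences between the lines was not tested.

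The depth ran from 21420113 to 34112379 reads on genes. Of the luminal epithelial markers checked, 8 of 9 were above 10 units in every library. The exception was CDH1 (E-cadherin), which read 2.6 to 15.1 units in SKBR-3 and 19413.5 to 24372.6 in BT474m1. The summed level of 10 basal markers was 19.9 to 97.9 units in SKBR-3 and 30.3 to 83.9 in BT474m1. The sum of 7 fibroblast markers was 24.1 to 126.0 in SKBR-3 and 341.7 to 1262.6 in BT474m1, nearly all of it COL1A1, with LUM at 0 in all 8 libraries. The sum of 7 immune markers was 2.1 to 17.2 in SKBR-3 and 12.7 to 80.7 in BT474m1, and PTPRC did not pass 3.4 in any library. Most of the sum in BT474m1 was LYZ, at 11.8, 80.7, 14.0 and 71.1 with DMSO, lapatinib, JQ1 and both drugs. The sum of 3 endothelial markers was 21.9 to 148.9 and 7.0 to 189.1, and PECAM1 did not pass 0.6. The part of these levels in the results was not tested.

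In SKBR-3, values with lapatinib were above those with DMSO for 7 of the 9 factors, as for 53.0% of all genes, and only ELF3 of the 7 reached 2-fold. In BT474m1 this held for 4, GATA3 by only 0.00 on the log2 scale, and for 54.5% of all genes. ELF3 was higher with every treatment in both lines and had the widest range among the 8 abundant factors. TFAP2C was higher with JQ1 in both lines, while TFAP2B, a scarce transcript found in SKBR-3, was 11.4-fold lower there with JQ1. GATA3, TFAP2A, SPDEF and GRHL2 went in opposite directions in the 2 lines with both drugs against DMSO.

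**Figure D1:**
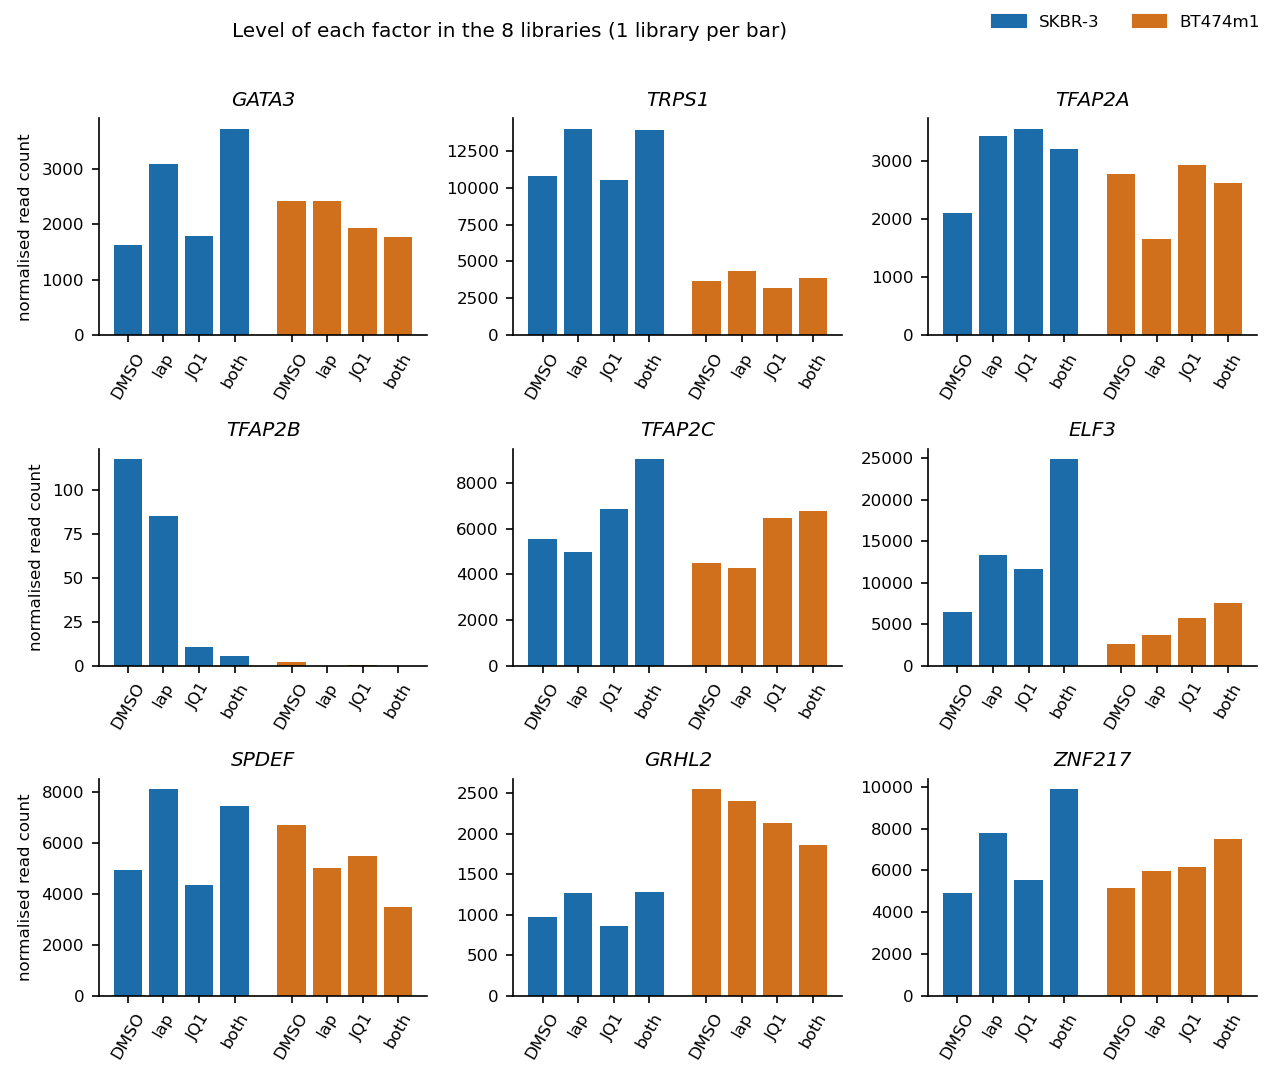
Bars give the normalised read count (linear axis from 0, scale set per gene) of each factor in the 8 libraries, SKBR-3 in blue and BT474m1 in orange, with DMSO, lapatinib (lap), JQ1 or both drugs, 1 library per bar and so no error bar. ELF3 climbs to 24921.1 in SKBR-3 with both drugs, TRPS1 is higher in all 4 SKBR-3 libraries than in any BT474m1 library, and GRHL2 shows the reverse order.

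The ETS family is named for a DNA-binding domain that reads a GGAA core, and it contributed ELF3 and SPDEF, which are both largely confined to epithelia. ELF3 (Entrez 1999) lies at chr1:202010587-202017183 on the plus strand of GRCh38.p14. Because it varied most among the abundant factors, the 250 bases before its start are shown, from the RefSeq promoter table of that build (chr1:202010337-202010586, plus strand). Capitals mark a TATAAA element 34 bases before the start.
ELF3: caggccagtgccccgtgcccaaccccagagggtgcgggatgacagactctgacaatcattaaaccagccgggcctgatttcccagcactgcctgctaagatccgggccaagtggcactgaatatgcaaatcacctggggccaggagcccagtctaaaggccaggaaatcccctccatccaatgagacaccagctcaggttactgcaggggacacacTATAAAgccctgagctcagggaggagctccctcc
TATAAA on either strand is found in 10.8% of the 34788 windows of this length in the table. The window holds 58.4% G and C, against a median of 58.0% over all windows, and 0 matches to the FOX, GATA, AP-2, ETS or GRHL letters searched (spelled out further on).

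ELF3 read 6415.2 in the DMSO library of SKBR-3, 13391.3 after lapatinib, 11626.9 after JQ1 and 24921.1 after the combination. BT474m1 gave 2548.8, 3735.5, 5781.2 and 7517.2 in the same order. Within each line the DMSO library was lowest and the library with both drugs highest, and no adjacent pair in the order of the 8 libraries lay within counting error. Its level with both drugs in SKBR-3 was the 44th highest of the 14429 genes kept, and its highest value was 9.78 times its lowest. ELF3 was 2.09-fold higher with lapatinib in SKBR-3 (log2 1.06, 95% interval 1.02 to 1.10) and 1.47-fold higher in BT474m1 (log2 0.55, 0.50 to 0.60). JQ1 alone gave the larger change in BT474m1, 2.27-fold (log2 1.18, 1.14 to 1.23), and 1.81-fold in SKBR-3 (log2 0.86, 0.82 to 0.89). With both drugs ELF3 was 3.88-fold higher than with DMSO in SKBR-3 (log2 1.96, 1.92 to 1.99) and 2.95-fold higher in BT474m1 (log2 1.56, 1.51 to 1.61). In each line this was the largest increase from DMSO among the 9 factors.

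SPDEF (Entrez 25803, chr6:34537802-34556329, minus strand) drives secretory differentiation and is bound up with the luminal program. It read 4951.3, 8116.4, 4344.1 and 7457.3 in SKBR-3, with DMSO, lapatinib, JQ1 and both drugs. In BT474m1 the values were 6687.9, 5003.6, 5505.3 and 3502.6. The 2 SKBR-3 libraries with lapatinib were the highest of the 8, and the BT474m1 library with both drugs was the lowest. With lapatinib SPDEF was higher in SKBR-3 (log2 0.71, 0.67 to 0.76) and lower in BT474m1 (log2 -0.42, -0.46 to -0.38). JQ1 went with slightly lower levels in both lines, by log2 -0.19 (-0.24 to -0.14) in SKBR-3 and -0.28 (-0.32 to -0.25) in BT474m1. With both drugs the lines were farthest apart, at 0.59 (0.55 to 0.63) in SKBR-3 and -0.93 (-0.98 to -0.89) in BT474m1.

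The GATA family binds a GATA core, and 2 of its members were included. GATA3 (Entrez 2625, chr10:8045333-8075198, plus strand) specifies luminal cells and is among the genes most often mutated in luminal breast cancer. GATA3 and ZNF217 are the members whose windows hold a match to the AP-2 letters, GCCNNNGGC, so both are shown. Capitals mark the match, which lies 218 bases before the start in GATA3 (chr10:8054438-8054687, plus strand) and 147 bases before it in ZNF217 (chr20:53593840-53594089, minus strand).
GATA3: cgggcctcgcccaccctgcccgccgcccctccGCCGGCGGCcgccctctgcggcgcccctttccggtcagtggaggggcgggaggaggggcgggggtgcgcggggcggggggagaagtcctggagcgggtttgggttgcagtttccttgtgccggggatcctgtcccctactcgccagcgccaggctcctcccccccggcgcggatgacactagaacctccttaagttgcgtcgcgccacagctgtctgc
ZNF217: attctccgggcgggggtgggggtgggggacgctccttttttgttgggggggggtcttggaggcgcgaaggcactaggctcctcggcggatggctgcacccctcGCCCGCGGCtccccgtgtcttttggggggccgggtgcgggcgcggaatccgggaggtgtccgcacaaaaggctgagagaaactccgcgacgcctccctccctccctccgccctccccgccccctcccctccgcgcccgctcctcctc
The same letters are found in 19.8% of all windows, and these are rich in G and C (73.6% in GATA3 and 72.4% in ZNF217).

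GATA3 read 1622.8 in the DMSO library of SKBR-3, 3079.6 after lapatinib, 1793.2 after JQ1 and 3718.7 after the combination. BT474m1 gave 2411.6, 2419.3, 1937.7 and 1779.0. The SKBR-3 libraries with lapatinib stood above all others, and the values in BT474m1 covered only 1.36-fold. With lapatinib GATA3 was 1.90-fold higher in SKBR-3 (log2 0.92, 0.85 to 1.0), whereas in BT474m1 the difference was 0.00 (-0.06 to 0.06). With both drugs it was 2.29-fold higher than with DMSO in SKBR-3 (log2 1.20, 1.13 to 1.27) and 1.36-fold lower in BT474m1 (log2 -0.44, -0.50 to -0.37). An antisense gene, GATA3-AS1, overlaps GATA3 and read 0.0 to 7.2 units. Whether the counting used strand is not stated, and the other genes of the annotation that overlap members were not analysed here. They lie on the opposite strand of TRPS1, TFAP2A, ELF3, GRHL2 and ZNF217, and on the same strand as GATA3 and ELF3, where reads could be shared whatever the strand setting.

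TRPS1 (Entrez 7227, chr8:115408496-115668975, minus strand) is an atypical GATA protein that represses transcription and is abundant in breast epithelium. In SKBR-3 it read 10760.2, 13982.4, 10480.0 and 13921.2, and in BT474m1 3697.8, 4383.7, 3173.9 and 3888.0, with DMSO, lapatinib, JQ1 and both drugs. Every SKBR-3 library was above every BT474m1 library, and the spread within a line was 1.33-fold and 1.38-fold. Lapatinib went with a small difference in the same direction in both lines, log2 0.38 (0.35 to 0.41) in SKBR-3 and 0.25 (0.20 to 0.29) in BT474m1. The change with JQ1 was -0.22 (-0.27 to -0.17) in BT474m1 and -0.04 (-0.07 to -0.01) in SKBR-3, where scaling by the median of ratios turned it to 0.05.

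The AP-2 proteins bind DNA as dimers. TFAP2A (AP-2 alpha) and TFAP2C (AP-2 gamma) are expressed in mammary epithelium, and both have been tied to the expression of ERBB2. TFAP2A (Entrez 7020, chr6:10396677-10419659, minus strand) read 2108.7, 3426.3, 3550.4 and 3209.7 in SKBR-3 and 2778.5, 1660.7, 2930.5 and 2610.4 in BT474m1. In SKBR-3 all 3 treated libraries were above DMSO, and in BT474m1 the library with lapatinib alone was the lowest of the 8. With lapatinib TFAP2A was 1.62-fold higher in SKBR-3 (log2 0.70, 0.63 to 0.77) and 1.67-fold lower in BT474m1 (log2 -0.74, -0.81 to -0.68). Adding JQ1 to lapatinib in BT474m1 went with a level 1.57-fold above lapatinib alone (log2 0.65, 0.58 to 0.72), near that with DMSO (log2 -0.09, -0.15 to -0.03).

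TFAP2C (Entrez 7022, chr20:56629306-56639283, plus strand) was the most abundant AP-2 gene. It read 5550.5, 4984.7, 6851.8 and 9070.3 in SKBR-3 and 4481.4, 4304.2, 6482.6 and 6804.7 in BT474m1. In each line the 2 libraries with JQ1 were above the 2 without it, an order that no other of the 9 members showed in both lines. JQ1 alone went with a log2 difference of 0.30 (0.26 to 0.35) in SKBR-3, or 0.16 with equal totals, and 0.53 (0.49 to 0.57) in BT474m1. Added to lapatinib, JQ1 went with 0.86 (0.82 to 0.91) and 0.66 (0.62 to 0.70), while lapatinib alone differed from DMSO by -0.16 (-0.20 to -0.11) and -0.06 (-0.10 to -0.01). Per kilobase of the canonical transcript, TFAP2C supplied between 61.2% and 75.6% of the summed level of TFAP2A, TFAP2B and TFAP2C. Its lowest share in SKBR-3 was the lapatinib library's, while the lowest of BT474m1 was 63.9% with DMSO.

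TFAP2B (Entrez 7021, chr6:50818355-50847619, plus strand), AP-2 beta, was the scarcest member. Its window (chr6:50818621-50818870, plus strand) is shown because it was the member with the largest decrease with JQ1, in SKBR-3. Capitals mark the letters of TATAAA read on the reverse strand, 202 bases before the start.
TFAP2B: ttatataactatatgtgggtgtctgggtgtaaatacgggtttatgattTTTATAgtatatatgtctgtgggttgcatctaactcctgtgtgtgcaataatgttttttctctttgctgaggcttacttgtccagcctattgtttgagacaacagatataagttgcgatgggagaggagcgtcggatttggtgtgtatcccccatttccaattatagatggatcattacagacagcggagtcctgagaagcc
The window holds 40.8% G and C, lower than in the other 5 members with a window.

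TFAP2B read 117.4 in the DMSO library of SKBR-3 (164 reads), 85.0 after lapatinib (111 reads), 10.3 after JQ1 (16 reads) and 5.5 after the combination (8 reads). BT474m1 gave 4, 0, 1 and 0 reads in that order. The floor of 3 reads corresponds to 1.41 to 2.30 units, so TFAP2B was at the limit of detection in BT474m1, and it passed the filter on low values through its SKBR-3 libraries. TFAP2B was 11.4-fold lower with JQ1 in SKBR-3 (log2 -3.39, -4.35 to -2.77) and 15.4-fold lower when JQ1 was added to lapatinib (log2 -3.73, -5.20 to -2.92). The libraries with JQ1 and with both drugs did not differ beyond counting error (log2 -0.80, -2.34 to 0.40). In BT474m1 a change with a drug was not detectable at this depth.

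GRHL2 (Entrez 79977, chr8:101492439-101681200, plus strand) is a grainyhead factor that maintains genes of epithelial junctions. It read 969.9, 1266.5, 862.8 and 1273.3 in SKBR-3 and 2547.4, 2401.8, 2131.9 and 1864.7 in BT474m1. Every BT474m1 library was above every SKBR-3 library, the opposite of TRPS1. With both drugs GRHL2 was higher than with DMSO in SKBR-3 (log2 0.39, 0.29 to 0.49) and lower in BT474m1 (log2 -0.45, -0.51 to -0.39). JQ1 alone differed from DMSO by -0.17 (-0.28 to -0.06) and -0.26 (-0.31 to -0.20).

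ZNF217 (Entrez 7764, chr20:53567071-53597702, minus strand) is a zinc finger protein that works with the CoREST repressor complex, and its gene is amplified in some breast cancers. It read 4936.3, 7790.2, 5520.6 and 9884.1 in SKBR-3 and 5133.0, 5988.0, 6166.2 and 7482.2 in BT474m1. In both lines DMSO was lowest and the library with both drugs highest, as for ELF3. Against DMSO, lapatinib went with 0.66 (0.61 to 0.70) in SKBR-3 and 0.22 (0.18 to 0.26) in BT474m1. With both drugs ZNF217 was 2.0-fold higher in SKBR-3 (log2 1.0, 0.96 to 1.04), a difference that became 0.91 when libraries were scaled to equal totals, and 1.46-fold higher in BT474m1 (log2 0.54, 0.51 to 0.58).

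**Figure D2:**
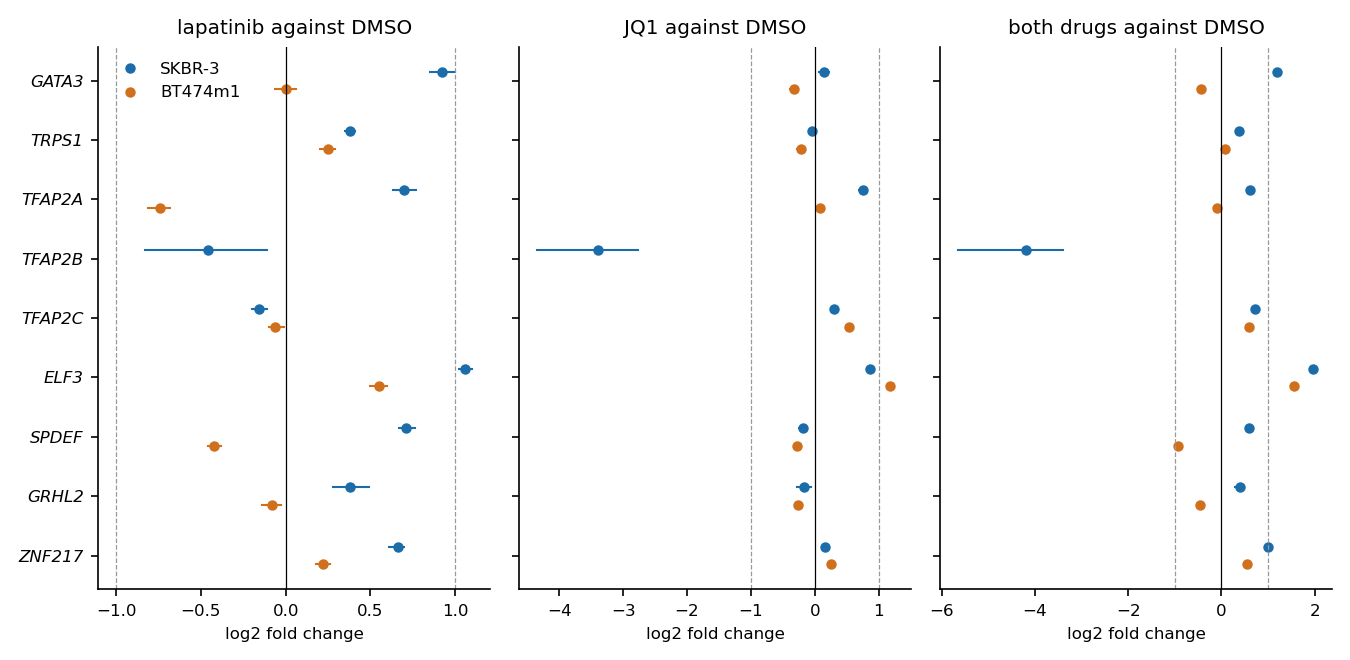
Points give the log2 fold change of each factor against DMSO (x axis, range set per panel) with lapatinib, JQ1 or both drugs, in SKBR-3 (blue) and BT474m1 (orange). Lines are 95% counting intervals, dashed lines mark 2-fold, and TFAP2B in BT474m1, with 4 reads or fewer, is left out. ELF3 lies to the right of 0 in all 3 panels in both lines, and TFAP2B in SKBR-3 lies at -3.39 with JQ1 and -4.19 with both drugs. In the panel with both drugs, the blue and orange points of GATA3, TFAP2A, SPDEF and GRHL2 fall on opposite sides of 0.

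Of the members, 1 of 9 (ELF3) was at least 2-fold higher with lapatinib in SKBR-3, where 11.1% of the 14429 genes were, and 0 of 9 were 2-fold lower, against 9.44% of all genes. With lapatinib in BT474m1 the count was 0 higher and 1 lower, against 14.0% and 8.06% of all genes. That 1 was TFAP2B at 0 reads against 4, whose interval includes no change. The members' median change was 0.66 in SKBR-3, where that of all genes was 0.05, and -0.06 in BT474m1, where it was 0.07. For the 5930 genes that reached 1000 units in some library, which is where 8 of the members lie, the medians were 0.08 and -0.01.

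With JQ1 in SKBR-3, 0 of 9 members were 2-fold higher and 1 (TFAP2B) was lower, against 3.75% and 11.8% of all genes. In BT474m1, 1 (ELF3) was higher and 0 were lower, against 4.81% and 11.8%. Of the genes that reached 1000 units, 2.51% were higher and 4.3% lower in SKBR-3, and 2.21% and 5.03% in BT474m1. Their median was 0.14 in SKBR-3, where that of all genes was -0.08, and -0.22 in BT474m1, where it was -0.06.

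With both drugs in SKBR-3, 3 of 9 members (GATA3, ELF3 and ZNF217) were at least 2-fold higher than with DMSO, against 10.8% of all genes, and 1 (TFAP2B) was lower, against 20.8%. In BT474m1, 1 member (ELF3) was higher, against 14.2% of all genes, and 1 was lower, against 15.3%. That 1 was again TFAP2B at 0 reads against 4, with an interval that includes no change. Of the genes that reached 1000 units, 10.8% were higher and 13.7% lower in SKBR-3, and 7.2% and 10.4% in BT474m1. The members' median was 0.61 in SKBR-3, where that of all genes was -0.08, and -0.09 in BT474m1, where it was 0.00.

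Adding JQ1 to lapatinib in SKBR-3 went with 0 members 2-fold higher and 1 (TFAP2B) lower, against 3.22% and 16.2% of all genes. In BT474m1, 1 member (ELF3, log2 1.01, 0.97 to 1.05) was higher and 0 were lower, against 5.2% and 12.5%. Of the genes that reached 1000 units, 1.97% were higher and 7.4% lower in SKBR-3, and 2.02% and 5.75% in BT474m1. In SKBR-3 ELF3 (log2 0.90, 0.87 to 0.92) and TFAP2C (0.86) lay just under 2-fold, and scaling by the median of ratios put both past it, at 1.06 and 1.02. That scaling shifts the median of all genes in this comparison by 0.16. On the deposited scale GATA3 differed by 0.27 (0.21 to 0.33) in SKBR-3 and -0.44 (-0.51 to -0.38) in BT474m1.

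Adding lapatinib to JQ1 in SKBR-3 went with 2 members (GATA3 and ELF3) 2-fold higher and 0 lower, against 9.79% and 12.3% of all genes. ELF3 differed by 1.10 (1.07 to 1.13) and GATA3 by 1.05 (0.99 to 1.12). In BT474m1 no member passed 2-fold, with 0 higher and 0 lower, against 12.4% and 7.27%. There SPDEF differed most, by -0.65 (-0.70 to -0.61), where in SKBR-3 it differed by 0.78 (0.74 to 0.82).

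The 2 lines were next compared under the same treatment. With DMSO, 1 of 9 members was at least 2-fold higher in BT474m1 and 3 were lower, against 26.8% and 15.6% of all genes. The 1 that was higher was GRHL2 (log2 1.39, 1.31 to 1.48), and those that were lower were TRPS1 (log2 -1.54, -1.58 to -1.50), ELF3 (log2 -1.33, -1.38 to -1.28) and TFAP2B (log2 -5.36, -7.85 to -4.58). FOXA1 stood at 1.31 (1.27 to 1.35) on the same comparison, and ESR1 read 1.9 to 16.8 units in SKBR-3 and 189.9 to 1826.5 in BT474m1. TFAP2A and SPDEF were moderately higher in BT474m1, by 0.40 and 0.43, and ZNF217 was nearly level, at 0.06 on the deposited scale and -0.10 after median of ratios scaling.

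With lapatinib, 0 members were 2-fold higher in BT474m1 and 4 were lower, against 29.5% and 16.4% of all genes. TFAP2A had joined TRPS1, ELF3 and TFAP2B, at -1.04 (-1.11 to -0.98), and TFAP2B had 0 reads against 111, with an interval that reaches up to -5.23 on the log2 scale. With JQ1 the counts were 1 higher and 3 lower, against 28.5% and 15.9%. Of the 3, TFAP2B had 1 read against 16 and was not called with a pseudocount of 10. ELF3 was then at -1.01 (-1.04 to -0.97), which moved to -0.91 with equal totals. With both drugs 0 were higher and 5 lower, against 34.2% and 14.4%. The 5 were TRPS1 (-1.84), ELF3 (-1.73), TFAP2B (0 reads against 8, with an interval that reaches up to -1.01, and not called with a pseudocount of 10), SPDEF (-1.09, -1.14 to -1.04) and GATA3 (-1.06, -1.13 to -1.0), the last at -0.99 with equal totals.

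GATA3 and SPDEF stood in opposite order in the 2 lines according to treatment. With DMSO they were higher in BT474m1, by 0.57 (0.50 to 0.64) and 0.43 (0.39 to 0.48), and with lapatinib they were lower there, by -0.35 (-0.41 to -0.28) and -0.70 (-0.74 to -0.66). TFAP2A showed the same turn, from 0.40 with DMSO to -1.04 with lapatinib. TRPS1 kept its place, between -1.84 and -1.54 under the 4 treatments, and GRHL2 stayed above 0, between 0.55 and 1.39. Scaling by the median of ratios shifted the median of all genes between the lines by -0.15 to -0.32, and under it GRHL2 with both drugs stood at 0.23.

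**Figure D3:**
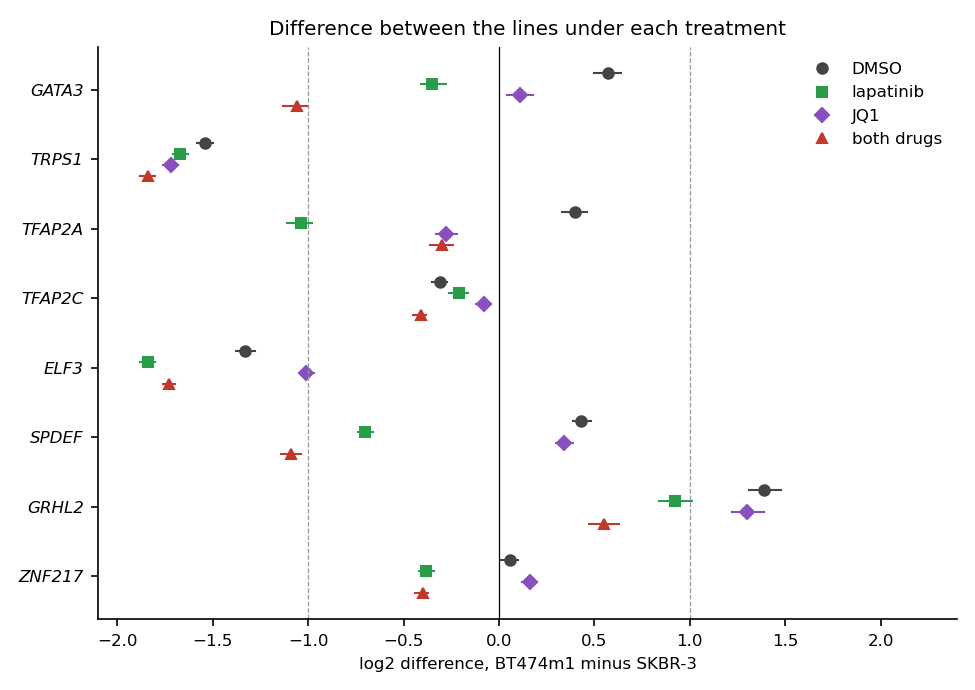
Points give the log2 difference of BT474m1 from SKBR-3 (x axis) for 8 factors under DMSO, lapatinib, JQ1 and both drugs. Lines are 95% counting intervals, dashed lines mark 2-fold, and TFAP2B is left out because it had 4 reads or fewer in BT474m1. TRPS1 and ELF3 lie left of 0 in all 4 conditions and GRHL2 lies right of it, while GATA3, TFAP2A and SPDEF cross 0 between DMSO and lapatinib, and the ZNF217 points with DMSO and JQ1 and the GATA3 point with JQ1 change side when scaled by the median of ratios, as does TFAP2C with JQ1 when scaled to equal totals.

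The difference between the lines in the response to lapatinib, BT474m1 minus SKBR-3, was -1.44 for TFAP2A (-1.54 to -1.35), -1.13 for SPDEF (-1.19 to -1.07) and -0.92 for GATA3 (-1.01 to -0.82). For FOXA1, itself no member, it was -1.13 (-1.18 to -1.08). It was smaller for ELF3 (-0.51), GRHL2 (-0.47), ZNF217 (-0.44) and TRPS1 (-0.13), and positive for TFAP2C (0.10, 0.03 to 0.16). The response to both drugs differed by -1.63 for GATA3 (-1.73 to -1.54), -1.52 for SPDEF (-1.59 to -1.46) and -0.84 for GRHL2 (-0.96 to -0.72). With JQ1 alone the differences were between -0.67 (TFAP2A) and 0.32 (ELF3) among the 8 abundant members. These intervals cover counting error in the 4 libraries and not the spread between cultures.

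**Figure D4:**
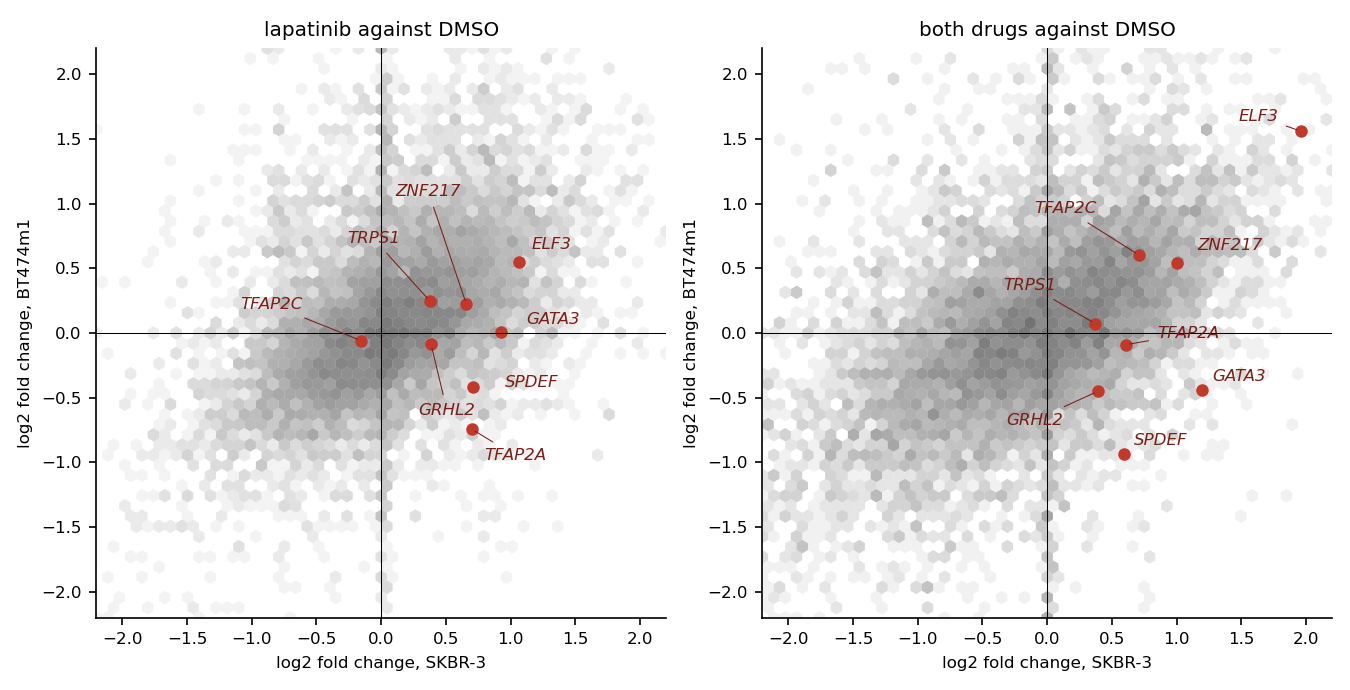
Each panel sets the log2 fold change against DMSO in SKBR-3 (x axis) against that in BT474m1 (y axis), for lapatinib on the left and both drugs on the right. Red points are 8 factors, TFAP2B being left out, and the grey shading is the density, on a log scale, of the 14429 genes kept, of which those beyond 2.2 are not drawn. SPDEF and TFAP2A lie in the lower right part with lapatinib, at 0.71 and -0.42 and at 0.70 and -0.74, and with both drugs GATA3 and SPDEF lie farthest into it.

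With lapatinib and JQ1 combined, the change from DMSO was set beside the sum of the changes with each drug alone. All 3 changes share the DMSO library of their line. For 7 of 9 members in each line the change with both drugs lay within 0.5 of that sum, as it did for 70.4% of all genes in SKBR-3 and 75.2% in BT474m1. ELF3 in SKBR-3 had a sum of 1.92 and a change of 1.96, and GATA3 a sum of 1.07 and a change of 1.20. The members that departed in SKBR-3 were TFAP2A, at 0.61 against a sum of 1.45 (departure -0.85, -0.93 to -0.76), and TFAP2C, at 0.71 against a sum of 0.15 (departure 0.56, 0.50 to 0.62). In BT474m1 TFAP2A departed the other way, at -0.09 against a sum of -0.67 (departure 0.58, 0.49 to 0.66), and the other was TFAP2B, with its 4 reads or fewer.

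**Figure D5:**
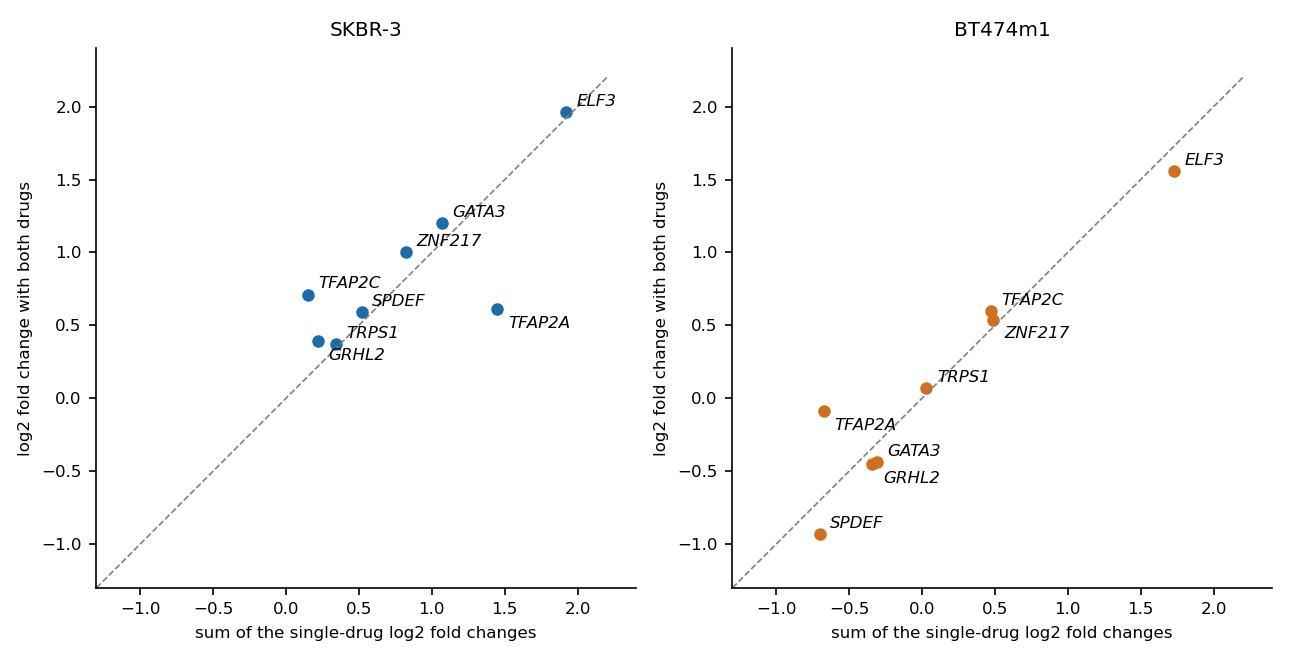
The sum of the log2 fold changes with lapatinib alone and JQ1 alone (x axis) is plotted against the log2 fold change with both drugs (y axis) for 8 factors in SKBR-3 (left) and BT474m1 (right), TFAP2B being left out. The dashed line marks equality: most points lie near it, TFAP2A lies 0.85 below it in SKBR-3 and 0.58 above it in BT474m1, and TFAP2C lies 0.56 above it in SKBR-3.

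Levels of different genes were compared per kilobase of their canonical transcript. With DMSO in SKBR-3 the order of the levels was SPDEF (2592), ELF3 (2067), TFAP2C (1939), TRPS1 (1080), ZNF217 (853), TFAP2A (671), GATA3 (526), GRHL2 (185) and TFAP2B (20.8 units per kilobase). In BT474m1 SPDEF again came first (3502), followed by TFAP2C (1566), and TRPS1 was second to last (371). ELF3 came first in SKBR-3 with each treatment that held a drug, reaching 8029 with both. In BT474m1 it moved from the fifth place with DMSO (821) to the first with both drugs (2422), just above TFAP2C (2378). These levels depend on the transcript taken as canonical, and the transcripts actually used were not measured.

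Beside the marked elements, the promoter windows were searched on both strands for other letters. The forkhead letters GTAAACA are in 2.98% of all windows and the forkhead variant GTCAACA is in 1.95%. The GATA letters AGATAA are in 9.21% and the variant TGATAA is in 6.68%. The ETS letters GGAAGT are in 19.5%, and the grainyhead letters AACNNGTT are in 3.0%. RefSeq windows were at hand for 6 of the 9 members, and none of the 6 held any of them, nor did TFAP2A or SPDEF hold a match to any motif searched. The window of TFAP2A lies 2683 bases from the start of its canonical transcript. TRPS1, TFAP2C and GRHL2 had no window.

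For each member the genes most like it over the 6 changes from DMSO (3 treatments in 2 lines) were found among 9840 other genes (9841 for TFAP2B) that reached 100 units in each line, by the mean absolute difference of the log2 fold changes. ZNF217 was closest to FBXO34 (0.04), OTUD5 (0.05) and PPM1A (0.06). TRPS1 was closest to MOCS3 (0.03), SNRNP35 (0.05) and SLC30A7 (0.05), and TFAP2C to MTFMT (0.07), DCUN1D2 (0.10) and CDKN2AIP (0.10). GATA3 was closest to PPP1R3D (0.10), TRPM4 (0.11) and SSH3 (0.11), SPDEF to MIOS (0.11), GFPT1 (0.12) and C8orf33 (0.13), and GRHL2 to PDP2 (0.08), GPR107 (0.08) and SERP1 (0.09). ELF3 was farther from any gene, with KLHL28 (0.15), PNPLA2 (0.17) and PSAP (0.18) the closest, and TFAP2A had MAPK8IP1 (0.09), LHPP (0.11) and ENPP1 (0.16). For TFAP2B the closest, PKP1, was at 0.58, followed by CRAT (0.60) and KLHL13 (0.60). TFAP2B itself did not reach 100 units in BT474m1, and its changes there rest on 4 reads or fewer. Among the members, GRHL2 and TRPS1 were the most alike (0.17), yet TRPS1 ranked only 203rd among the genes closest to GRHL2, and GRHL2 407th among those closest to TRPS1. The member closest to SPDEF (0.23) and to GATA3 (0.30) was also GRHL2, at ranks 60 and 248.

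Related genes of the same families were listed as paralogs, 11 in all, of which 8 passed the filter on low values. With JQ1, 0 of the 8 were 2-fold higher and 4 lower in SKBR-3, with a median of -0.73, against 3.75% and 11.8% of all genes. In BT474m1 0 were higher and 3 lower, with a median of -0.36, against 4.81% and 11.8%. EHF, an ETS gene of the same epithelial subgroup as ELF3, read 413.7, 1364.5, 134.0 and 251.1 in SKBR-3 and 2846.8, 4189.2, 432.4 and 2787.2 in BT474m1. It was lower with JQ1 by -1.62 and -2.72, where ELF3 was higher by 0.86 and 1.18. The grainyhead gene GRHL3 was lower with JQ1 by -1.22 and -1.93, and GATA5 by -1.38 and -1.70, from low levels, at most 212.6 units for GRHL3 and 63.7 for GATA5. The far more abundant GRHL1, named after its values were seen, read 1777.3 to 3886.7 units and was higher with JQ1, by 0.89 and 0.91.

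Of 15 proteins that bind the members, 14 passed the filter, and with lapatinib 3 were 2-fold higher and 0 lower in SKBR-3, against 11.1% and 9.44% of all genes. In BT474m1 1 was higher and 0 lower, against 14.0% and 8.06%. CITED2, a coactivator of AP-2, read 2587.0, 5792.5, 5299.6 and 9079.3 in SKBR-3 and 656.8, 1153.0, 1163.3 and 1890.4 in BT474m1. As with ELF3, DMSO was lowest and both drugs highest in each line. CITED4, of the same family, was higher with lapatinib by 1.44 and 2.63. KCTD15, a repressor of AP-2 activity, was lower with JQ1 by -1.13 and -1.81.

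Other luminal factors (11 genes, FOXA1 and ESR1 among them) had a median change with lapatinib of 0.88 in SKBR-3 and 0.33 in BT474m1. In SKBR-3 5 were higher and 0 lower, against 11.1% and 9.44% of all genes. Of the 5, ESR1 was scarce, with 22 reads against 6 (log2 1.75, 0.63 to 3.56). In BT474m1 2 were higher and 0 lower, against 14.0% and 8.06%. With JQ1 the medians were -0.38 and -0.51. No gene of the list was 2-fold higher with JQ1 in either line, against 3.75% and 4.81% of all genes, and 0 were lower in SKBR-3 and 5 in BT474m1, against 11.8% in each. With both drugs 4 were higher and 1 lower in SKBR-3 (median 0.69), against 10.8% and 20.8%. The 1 lower was PGR, at 1.4 units with DMSO and 0.0 with both drugs, each under the floor of 3 reads. In BT474m1 0 were higher and 4 lower (median -0.38), against 14.2% and 15.3%. FOXA1 read 5197.6, 7884.4, 6197.2 and 9779.5 in SKBR-3 and 12907.1, 8957.2, 13200.0 and 10157.4 in BT474m1. Like TFAP2A and SPDEF, it was higher in SKBR-3 given lapatinib (log2 0.60, 0.56 to 0.64) and lower in BT474m1 (log2 -0.53, -0.56 to -0.50). ESR1 in BT474m1 went the other way, higher with lapatinib (log2 1.12, 1.04 to 1.21) and lower with JQ1 (log2 -2.14, -2.31 to -1.99).

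Of 11 epithelial genes linked to GRHL2, 4 were 2-fold higher and 0 lower with both drugs in SKBR-3, with a median of 0.78, against 10.8% and 20.8% of all genes. Of the 4, CDH1 was scarce, at 15.1 units against 4.3 with DMSO. In BT474m1 0 were higher and 1 lower, with a median of 0.11, against 14.2% and 15.3%. Of 5 secretory genes linked to SPDEF that passed the filter, 1 was higher and 3 lower with both drugs in SKBR-3, against 10.8% and 20.8% of all genes, and TFF1 and TFF3, among those lower, read at most 24.5 units there. In BT474m1 0 were higher and 4 lower, against 14.2% and 15.3%. AGR2, a protein disulfide isomerase of secretory cells, read 2634.2, 3085.0, 1813.1 and 1167.3 in SKBR-3 and 9799.2, 4648.8, 5083.6 and 358.6 in BT474m1. It was lowest with both drugs in each line, at -1.17 and -4.77 from DMSO, where SPDEF was at 0.59 and -0.93. The trefoil gene TFF1, an estrogen target, differed with both drugs by -2.92 and -2.54, from 22.2 units with DMSO in SKBR-3 and 1207.4 in BT474m1.

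Of 5 genes linked to AP-2, 3 were 2-fold higher and 0 lower with lapatinib in SKBR-3, against 11.1% and 9.44% of all genes. In BT474m1 2 were higher and 2 lower, against 14.0% and 8.06%. ERBB3 (HER3) was higher with lapatinib by 1.45 and 1.15, and MUC1, an epithelial mucin, by 3.38 and 1.36. RET, a receptor kinase gene, read at most 3.6 units in SKBR-3 and in BT474m1 read 1343.2, 466.9, 821.3 and 365.6. TFAP2A itself differed with this drug by 0.70 and -0.74 and TFAP2C by -0.16 and -0.06.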

How the data were processed

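Poly(A) RNA from 2 cell lines was sequenced, and groups came from the labels (48 h). The study's methods text names another treatment time, genome assembly and quantifier for its cell lines in general, so the annotation behind these tables is uncertain. The labels also name 2 library kits. The submitters' processing notes list hg19, Picard 1.88, SAMtools 1.2, RSEM, DESeq, R 3.2.2 and DESeq2 1.12.3. The authors deposited a normalised signal per gene, RSEM estimates scaled to an upper quartile of 1000.

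Reads were recovered from the step between values (83.8% to 85.2% whole within 0.02 reads). The depth, 21420113 to 34112379 reads on genes, sets the counting intervals, which cover counting error only, since PCR reads are not independent molecules and cultures were not replicated. Genes reaching 10 units in any library were kept (14429 of 20531). The log2 pseudocount was 1. Python 3.11.15 (numpy 2.4.6, scipy 1.17.1, pandas 2.3.3, with matplotlib 3.10.9 for figures) was used, and the code was tested on simulated data. Gene positions and promoter windows are from RefSeq (GRCh38.p14), and strands, canonical transcripts and overlapping genes are from GENCODE. Neither was matched to the reads.

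Named were the 9 members, FOXA1 and ESR1, the 3 genes most like each member, and up to 3 genes per list changed at least 2-fold alike in both lines. Also named were marker genes of other cell types (COL1A1, LUM, PTPRC, LYZ, PECAM1, VWF and CDH5), the overlapping GATA3-AS1, and CDH1, GRHL1 and EIF3H. LYZ, VWF, CDH5, CDH1, GRHL1 and EIF3H were chosen after their values were seen. Members and lists were chosen with earlier results of these data known.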

Additional observations from a re-analysis of the deposited data

Results flagged for a closer look

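In 13 of the 45 pairs of a member and a comparison within a line, the member went one way in SKBR-3 and the opposite way in BT474m1, with both counting intervals leaving out no change. That is 28.9% of the pairs, against 11.3% over all genes and 16.8% over genes that reached 1000 units, whose intervals are narrow, and the 5 comparisons share libraries. With 1 library per group the difference between the lines was not tested.

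GATA3 with JQ1 against DMSO differed by 0.14 on the log2 scale in SKBR-3, no longer above 0 after scaling to equal totals, and by -0.32 in BT474m1. With both drugs against DMSO GATA3 was at 1.20 and -0.44, against lapatinib at 0.27 and -0.44, and against JQ1 at 1.05 and -0.12.

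TFAP2A was at 0.70 in SKBR-3 and -0.74 in BT474m1 with lapatinib, and at 0.61 and -0.09 with both drugs. With both drugs against lapatinib TFAP2A was at -0.09 in SKBR-3, or 0.07 after scaling by the median of ratios, and at 0.65 in BT474m1.

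SPDEF was at 0.71 and -0.42 with lapatinib, 0.59 and -0.93 with both drugs, and 0.78 and -0.65 with both drugs against JQ1. GRHL2 was at 0.38 and -0.08 with lapatinib, 0.39 and -0.45 with both drugs, and 0.56 and -0.19 with both drugs against JQ1.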

How the results depend on the processing

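No paired analysis was possible because the results come from no test, each group holding 1 library, and no replicate could be left out. A fit that takes the 2 lines as replicates of a treatment was left out, since the lines are described separately. The counts of members past 2-fold were recomputed in all 14 comparisons. Without a filter, with a filter at 100 and with equal totals, each of the 14 counts stayed within 1.5 times the first. With a pseudocount of 10, the count in BT474m1 went from 1 to 0 with lapatinib and from 2 to 1 with both drugs against DMSO, because TFAP2B, with 4 reads against 0, no longer passed. TFAP2B was likewise no longer called between the lines with JQ1 (-2.93 to -0.95) and with both drugs (-2.70 to -0.63). With scaling by the median of ratios, the count for both drugs against lapatinib in SKBR-3 went from 1 to 3 with ELF3 and TFAP2C. No called change turned its direction under these 5 settings. Of the 126 log2 differences of members, 72 moved by more than their counting interval allows when scaled by the median of ratios, and 46 with equal totals. Scaling by the median of ratios turned the sign of 7 log2 differences of 0.16 or less, and equal totals that of 3 of 0.14 or less. Scaling by the median of ratios shifted the median of all genes by 0.14 for both drugs against DMSO in SKBR-3, and equal totals shifted it by -0.15 for JQ1. Depth limits TFAP2B, which had 4 reads or fewer in BT474m1.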

Other observations

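The genes within 1 Mb of each member that reached 10 units in some library were compared between the lines with DMSO, a comparison chosen after seeing the values. TRPS1, at -1.54 in BT474m1 against SKBR-3, had 1 such neighbour, EIF3H, at -1.91. The 10 neighbours of GRHL2, at 1.39, had a median of 0.69, and the 27 of ELF3, at -1.33, a median of -0.66. For TFAP2A the 10 neighbours had a median of -0.72 while the gene stood at 0.40, and for ZNF217 the 4 neighbours had a median of 1.30 while the gene stood at 0.06, or -0.10 after scaling by the median of ratios. The 4 neighbours of GATA3, at 0.57, had a median of -0.15, the 13 of TFAP2C, at -0.31, a median of 0.35, and the 23 of SPDEF, at 0.43, a median of 0.12. The 1 neighbour of TFAP2B, at -5.36, was at 0.12. Copy number was not measured, and its part in these differences was not tested.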
